A study of Homo sapiens with 8 samples.

Results

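The genes described here are 10 of the 20719 genes listed in a ribosome profiling experiment on rhabdoid tumor cells. They are the ligands and receptors of the angiopoietin and VEGF families, ANGPT1, ANGPT2, ANGPTL4, TEK, TIE1, VEGFA, VEGFB, VEGFC and KDR, together with the adhesion receptor MCAM. The group was chosen by function and on measured values, because ANGPT2 occupancy was lower and MCAM occupancy higher when SMARCB1 was induced. The values of all members in that comparison are therefore given as a description, without a test. Ribosome profiling counts the mRNA fragments that translating ribosomes protect, so a value reflects both the amount of an mRNA and its translation.

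The cells were G401, an established kidney rhabdoid tumor line that lacks SMARCB1, a core subunit of the mSWI/SNF chromatin remodeling complexes. Lines carrying a Tet-On SMARCB1 or a Tet-On GFP transgene received either 0.1 μg/ml doxycycline (Dox) or DMSO for 12 h. This gives 4 groups of 2 libraries, SMARCB1 Dox, SMARCB1 DMSO, GFP Dox and GFP DMSO, and all 4 share the G401 background without endogenous SMARCB1. Plates of a condition were pooled before each library, and whether a line came from a single clone is not given in the sources used here. Each transgene was studied in a single line, so the transgene and the line that carries it cannot be told apart when the lines are compared.

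Counts on genes were 5924443 and 13700539 in the SMARCB1 DMSO pair, 11407983 and 6005867 for SMARCB1 Dox, 12001296 and 14000039 for GFP DMSO, and 6933132 and 6429574 for GFP Dox. GFP Dox replicate 1 stood apart, since 56.4% of its entries were reads without a unique alignment, compared with 25.6% to 39.7% in the other libraries. Gene values below that change direction or call without it are given both ways. SMARCB1 itself (chr22) had 2553 and 1750 counts in SMARCB1 Dox and 0 in each of the other libraries, as the labels say. Taking 3 counts as the upper limit of a count of 0, set for SMARCB1 DMSO as a group, SMARCB1 was at least 1616.5-fold higher with Dox. Such limits cover counting error only.

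Angiopoietins are secreted glycoproteins that bind the endothelial receptor tyrosine kinase TEK, also called TIE2. ANGPT1 activates TEK and stabilizes vessels, ANGPT2 antagonizes or weakly activates it depending on context, and TIE1 is a co-receptor that modulates TEK signaling. VEGFA drives endothelial growth and permeability mainly through KDR (VEGFR2), whereas VEGFB binds FLT1 (VEGFR1) and VEGFC acts on FLT4 (VEGFR3) and lymphatic vessels. MCAM (CD146) is an immunoglobulin superfamily adhesion molecule of endothelial cells, pericytes and several tumors, and binds the laminin chain LAMA4.

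Of the 10 members, 6 passed the expression filter (ANGPT1, ANGPT2, ANGPTL4, VEGFA, VEGFB and MCAM) and 4 did not (TEK, TIE1, VEGFC and KDR). Levels are given as CPM, the counts scaled to the size of a library, and levels of different genes are compared as CPM per kb of coding sequence. On that scale ANGPT2 was the most abundant member in SMARCB1 DMSO, at 258 ± 48.0 (SD, n = 2), followed by ANGPT1 at 103 ± 9.06. VEGFA at 7.14 ± 2.40 and VEGFB at 6.42 ± 0.138 did not differ beyond their spread, ANGPTL4 stood at 2.69 ± 0.721 and MCAM at 0.379 ± 0.195. In GFP DMSO the order was ANGPT2 at 154 ± 13.1, ANGPT1 at 35.4 ± 5.79, MCAM at 16.9 ± 0.925, VEGFB at 14.3 ± 0.780, VEGFA at 4.80 in both libraries, and ANGPTL4 at 1.22 ± 0.323. MCAM was thus the lowest of the 6 in SMARCB1 DMSO and ranked after the angiopoietins in GFP DMSO. In SMARCB1 Dox MCAM at 2.04 ± 0.345 and ANGPTL4 at 2.35 ± 1.15 CPM per kb did not differ beyond their spread. None of the members shares coding bases with another annotated gene. Each coding length joined the bases of all annotated transcripts, so a gene translated from shorter isoforms has its value per kb understated.

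ANGPT2 (ENSG00000091879, chr8:6499632-6563409 on the minus strand of GRCh38) had 2693 and 4425 counts in SMARCB1 DMSO, 1934 and 959 in SMARCB1 Dox, 3053 and 3205 in GFP DMSO, and 1228 and 1434 in GFP Dox. Scaled to library size these are 449 and 345 CPM in SMARCB1 DMSO, 162 and 152 in SMARCB1 Dox, 251 and 223 in GFP DMSO, and 203 and 212 in GFP Dox. The SMARCB1 DMSO libraries were the highest of the 8 and the SMARCB1 Dox libraries the lowest, with the GFP libraries between them and no overlap between the groups. Of all genes, 22% had SMARCB1 DMSO above GFP DMSO in this way and 22.9% had SMARCB1 Dox below GFP Dox. In libraries of pooled cells, fewer cells that translate a gene and less translation per cell cannot be told apart. Within the SMARCB1 line the log2 fold change with Dox was -1.34 (SE 0.24), and it lay between -1.52 and -1.14 when any library was left out. This is the contrast that chose ANGPT2, and 18.3% of all genes tested had both SMARCB1 Dox libraries below both SMARCB1 DMSO libraries.

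The GFP line, which the choice of members did not use, gave a log2 fold change of ANGPT2 with Dox of -0.19 (SE 0.23). Its GFP Dox libraries lay just below its GFP DMSO libraries, as did those of 13.2% of all genes, and the difference did not pass edgeR's quasi-likelihood test (adjusted p = 1). The difference between the Dox effects of the lines was -1.15 (SE 0.33) and is given without a test, because it holds the contrast that chose the gene. Without GFP Dox replicate 1 it was -1.18. The baselines of the lines also differed in level: SMARCB1 DMSO lay above GFP DMSO by 0.74 on the log2 scale (SE 0.23), and SMARCB1 Dox stood at -0.40 (SE 0.23) relative to GFP Dox.

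ANGPT1 (ENSG00000154188, chr8:107249482-107498055, minus strand) had 861 and 2089 counts in SMARCB1 DMSO, 2169 and 968 in SMARCB1 Dox, 718 and 674 in GFP DMSO, and 343 and 276 in GFP Dox. These correspond to 144 and 163 CPM, 181 and 153 CPM, 59.1 and 46.8 CPM, and 56.7 and 40.8 CPM, respectively. ANGPT1 therefore separated the lines, and Dox and DMSO libraries overlapped within each line. With Dox its log2 fold change was 0.13 (SE 0.25) in SMARCB1 cells, and in GFP cells it was -0.12 (SE 0.25, adjusted p = 1 in edgeR).

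ANGPT1 was the only member tested between the lines that was called, at an adjusted p below 0.05 and a fold change above 2 in edgeR. It was higher in SMARCB1 DMSO than in GFP DMSO by 1.53 on the log2 scale (SE 0.25, 2.90-fold, adjusted p = 0.00137 in edgeR), in 2 of 2 libraries. With Dox in both lines the difference was 1.78 (SE 0.26, 3.44-fold, adjusted p = 0.000417 in edgeR). Genes called higher in the SMARCB1 line made up 2.49% of the 11097 tested under DMSO and 3.1% under Dox. Genes called lower made up 2.49% and 2.98%. The difference under DMSO was not called without GFP DMSO replicate 2, the deeper of that pair (log2 fold change 1.38, adjusted p = 0.0557 in edgeR). Over the alternative settings that kept all libraries, adjusted p ranged from 1.1e-06 to 0.00208 under DMSO and from 8.95e-09 to 0.000663 under Dox. Without GFP Dox replicate 1 the difference under Dox was 2.04 (adjusted p = 0.000335 in edgeR).

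Because both angiopoietins compete for TEK, their ratio was computed within each library from CPM per kb, which cancels library depth. ANGPT2 exceeded ANGPT1 by a ratio of 3.04 and 2.06 in SMARCB1 DMSO, 4.13 and 4.62 in GFP DMSO, and 3.48 and 5.05 in GFP Dox. In SMARCB1 Dox the ratios were 0.866 and 0.962. Only the SMARCB1 Dox libraries held less ANGPT2 than ANGPT1 per kb. The group means were 2.55 ± 0.693 in SMARCB1 DMSO, 0.914 ± 0.0680 in SMARCB1 Dox, 4.37 ± 0.346 in GFP DMSO and 4.26 ± 1.11 in GFP Dox (SD, n = 2). The ratio contains the gene and contrast used to choose the members and is a description.

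**Figure D1:**
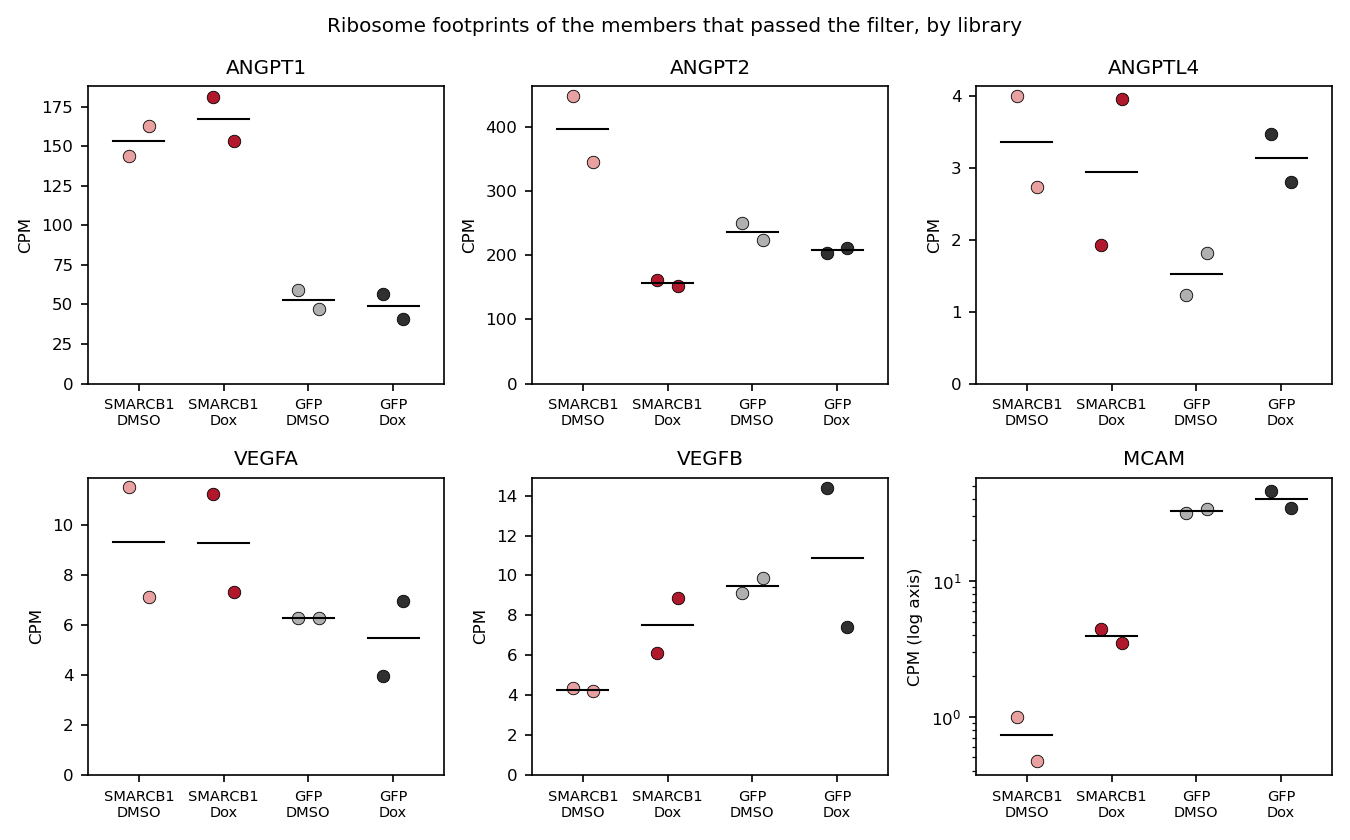
CPM of the 6 members that passed the filter in each of the 8 libraries (points) with group means (bars), on linear axes from 0 and, for MCAM, on a log axis. ANGPT2 is highest in SMARCB1 DMSO and lowest in SMARCB1 Dox, ANGPT1 is higher in the SMARCB1 line with and without Dox, and MCAM spans from 0.467 CPM in SMARCB1 DMSO to 46.0 CPM in GFP Dox.

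**Figure D2:**
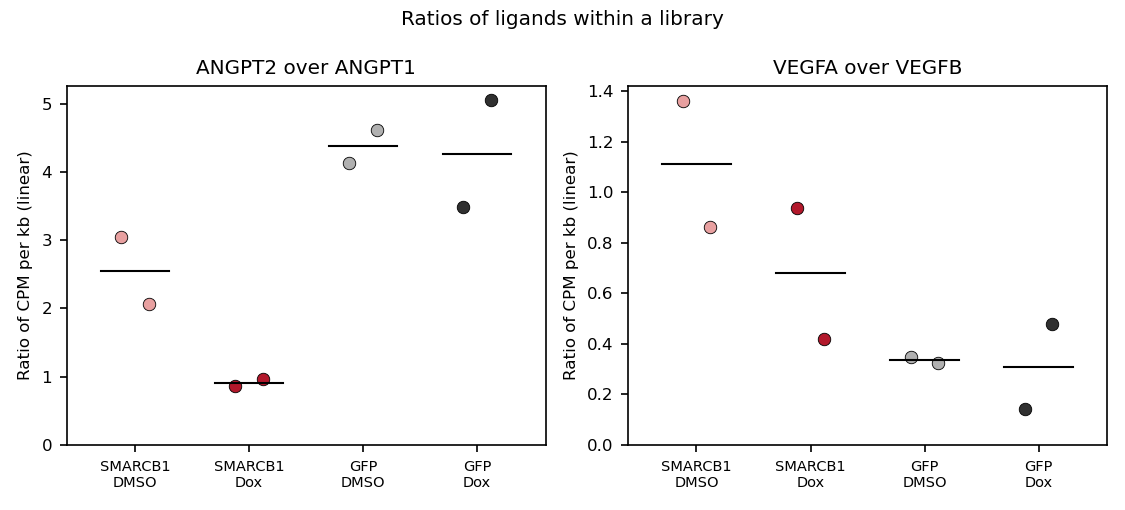
Ratio of ANGPT2 to ANGPT1 (left) and of VEGFA to VEGFB (right), each as CPM per kb of coding sequence within a library (points), with group means (bars), on linear axes from 0. The ANGPT2 to ANGPT1 ratio is 0.866 and 0.962 in SMARCB1 Dox and at least 2.06 in each of the other libraries.

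ANGPTL4 (ENSG00000167772, chr19:8363289-8374370, plus strand), a secreted inhibitor of lipoprotein lipase induced by PPAR and hypoxia signaling, had between 15 and 35 counts per library. Its levels were 4.0 and 2.73 CPM in SMARCB1 DMSO, 1.92 and 3.96 in SMARCB1 Dox, 1.23 and 1.81 in GFP DMSO, and 3.47 and 2.81 in GFP Dox. The GFP DMSO libraries were the lowest and the other groups overlapped. In the GFP line the log2 fold change with Dox was 1.03 (SE 0.64) and did not pass the test (adjusted p = 1 in edgeR), and both GFP Dox libraries lay above both GFP DMSO libraries, as for 13.1% of all genes. The log2 fold change in the SMARCB1 line was -0.21 (SE 0.62). Between the lines it was 1.11 (SE 0.63, adjusted p = 0.498 in edgeR) under DMSO and -0.13 (SE 0.63, adjusted p = 0.942) under Dox, the latter 0.02 without GFP Dox replicate 1. With SEs above 0.6, a 2-fold change in ANGPTL4 would lie within 2 SEs.

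VEGFA (ENSG00000112715, chr6:43770184-43786487, plus strand) had 69 and 91 counts in SMARCB1 DMSO, 134 and 46 in SMARCB1 Dox, 76 and 90 in GFP DMSO, and 24 and 47 in GFP Dox. These are 11.5 and 7.09 CPM, 11.2 and 7.29 CPM, 6.25 and 6.25 CPM, and 3.97 and 6.95 CPM. Dox and DMSO libraries overlapped within each line, and the SMARCB1 libraries all lay above the GFP libraries, by little. With Dox the log2 fold change was 0.02 (SE 0.43) in SMARCB1 cells. In GFP cells it was -0.19 (SE 0.44, adjusted p = 1 in edgeR), and 0.15 without GFP Dox replicate 1. Between the lines, VEGFA differed by 0.55 (SE 0.43, adjusted p = 0.686 in edgeR) under DMSO and by 0.77 (SE 0.44, adjusted p = 0.386) under Dox, and neither passed the test. Under Dox the difference was 0.43 without GFP Dox replicate 1 and 1.24 without replicate 2. Both SMARCB1 libraries lay above both GFP libraries for 22% of all genes under DMSO and 23.2% under Dox.

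VEGFB (ENSG00000173511, chr11:64234584-64239264, plus strand) had 26 and 54 counts in SMARCB1 DMSO, 73 and 56 in SMARCB1 Dox, 111 and 142 in GFP DMSO, and 87 and 50 in GFP Dox. The CPM values were 4.34 and 4.21, 6.11 and 8.88, 9.13 and 9.86, and 14.4 and 7.40. SMARCB1 DMSO was the lowest group, and SMARCB1 Dox lay between it and GFP DMSO without overlap. The log2 fold change with Dox in the SMARCB1 line was 0.80 (SE 0.43), described without a test, and 17.3% of all genes had both Dox libraries above both DMSO libraries there. Under DMSO, VEGFB differed between the lines by -1.15 (SE 0.43) and did not pass the test after adjustment (unadjusted p = 0.0169, adjusted p = 0.182 in edgeR), and 22.8% of all genes had both SMARCB1 libraries below both GFP libraries. Under Dox the difference was -0.55 (SE 0.42, adjusted p = 0.535 in edgeR), and it was 0.00 without GFP Dox replicate 1. The same library turned the Dox effect in the GFP line, from 0.19 (SE 0.41, adjusted p = 1 in edgeR) with it to -0.36 without it.

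VEGFA exceeded VEGFB per kb only in SMARCB1 DMSO replicate 1, at a ratio of 1.36, and the other libraries ranged from 0.141 to 0.938. These ratios use joined coding lengths of 1302 bases for VEGFA and 665 for VEGFB. A shorter VEGFA isoform would raise them, so which ligand is more abundant depends on the length taken. VEGFC (ENSG00000150630, chr4:176683538-176792922, minus strand), the lymphatic growth factor, had 7 and 0 counts in SMARCB1 DMSO, 6 and 0 in SMARCB1 Dox, 0 and 2 in GFP DMSO, and 0 and 1 in GFP Dox. All its counts in the SMARCB1 line came from replicate 1 of each group. The ratio of pooled, depth-scaled counts was 0.966 for SMARCB1 Dox over SMARCB1 DMSO (exact 95% Clopper-Pearson interval 0.268 to 3.36). It was 4.64 (0.883 to 45.7) for SMARCB1 DMSO over GFP DMSO and 4.60 (0.559 to 212) for SMARCB1 Dox over GFP Dox, so each interval includes a ratio of 1.

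The receptor KDR (ENSG00000128052, chr4:55078481-55125595, minus strand) had 0 counts in each library, which allows 0.208 to 0.5 CPM depending on library depth. TEK (ENSG00000120156, chr9:27109141-27230174, plus strand) had 2 counts and TIE1 (ENSG00000066056, chr1:43300982-43323108, plus strand) had 3 counts, each in SMARCB1 Dox replicate 1 alone, and 0 in the other libraries. No fold change is given, since both groups of each comparison were at or under 3 counts. Of the other VEGF receptors, FLT1 had 0 and 1 counts in SMARCB1 DMSO, 15 and 9 in SMARCB1 Dox and 0 in each GFP library. FLT1 passed the expression filter only through SMARCB1 Dox, where it was high. The pooled ratio with Dox in the SMARCB1 line was 27.0 (exact 95% Clopper-Pearson interval 4.41 to 1112.3, counting error only). Across libraries this difference did not pass the test (adjusted p = 0.765 in edgeR), and DESeq2 gave no adjusted p. FLT4 ranged from 5.92 CPM in a GFP DMSO library to 15.3 CPM in a SMARCB1 DMSO library.

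**Figure D3:**
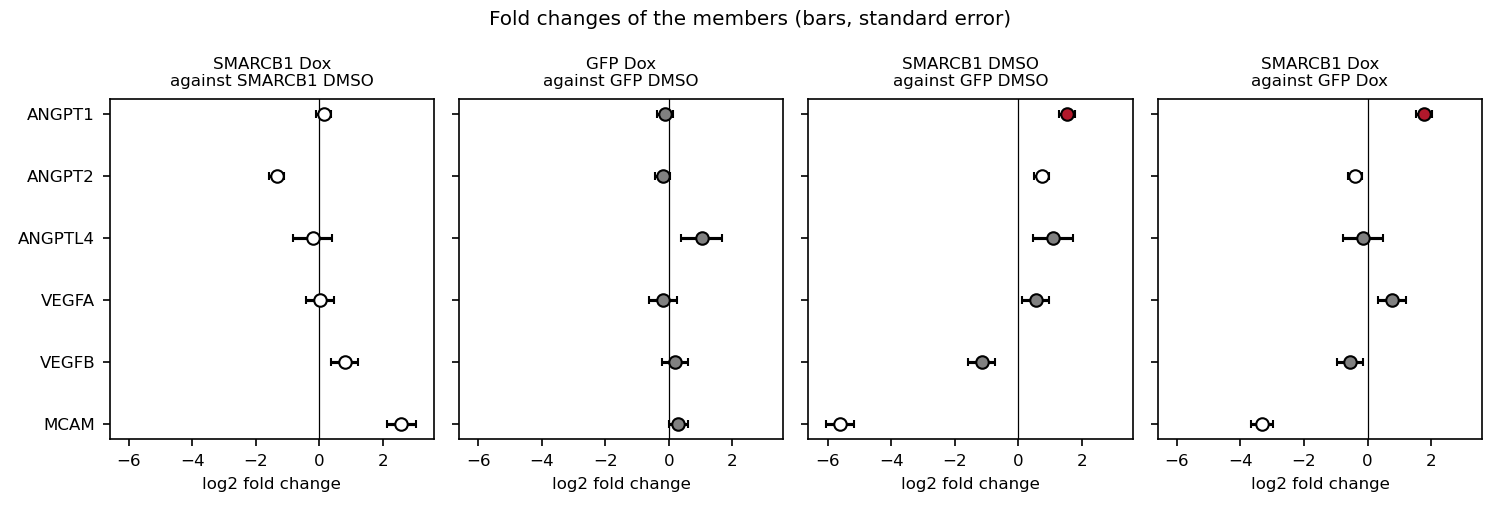
Log2 fold changes of the 6 members that passed the filter in 4 comparisons, with SE (bars), from edgeR. White points were described without a test, gray points were tested and not called, and red points, ANGPT1 at 1.53 and 1.78, were called.

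MCAM (ENSG00000076706, chr11:119308529-119321521, minus strand) had 6 and 6 counts in SMARCB1 DMSO, 53 and 22 in SMARCB1 Dox, 383 and 490 in GFP DMSO, and 278 and 234 in GFP Dox. These are 1.0 and 0.467 CPM, 4.43 and 3.49 CPM, 31.5 and 34.0 CPM, and 46.0 and 34.6 CPM. The groups did not overlap: SMARCB1 DMSO was lowest, SMARCB1 Dox was intermediate, and the GFP libraries were highest although they held no SMARCB1. Of all genes, 17.3% had SMARCB1 Dox above SMARCB1 DMSO without overlap, 22.8% had SMARCB1 DMSO below GFP DMSO, and 13.1% had GFP Dox above GFP DMSO. With Dox in the SMARCB1 line the log2 fold change was 2.58 (SE 0.46, 5.99-fold), as a description. It rests on 12 counts in SMARCB1 DMSO and was 1.99 without SMARCB1 DMSO replicate 2 and 3.07 without SMARCB1 DMSO replicate 1. MCAM passed the expression filter through its SMARCB1 Dox and GFP libraries, where it was high.

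In the GFP line MCAM had a log2 fold change with Dox of 0.30 (SE 0.30), which did not pass the test (adjusted p = 1 in edgeR), and 0.08 without GFP Dox replicate 1. The difference between the Dox effects was 2.29 (SE 0.55), or 2.52 without that library and 1.70 without SMARCB1 DMSO replicate 2. The gap between the lines was larger than the Dox effect: MCAM stood at -5.61 (SE 0.43, 48.8-fold lower) in SMARCB1 DMSO relative to GFP DMSO (-5.02 without SMARCB1 DMSO replicate 2) and at -3.32 (SE 0.34, 10.0-fold lower) in SMARCB1 Dox relative to GFP Dox. The SMARCB1 Dox libraries thus held less MCAM than any GFP library. These line differences share libraries with the contrast that chose MCAM and are given without a test, and 22.9% of all genes had both SMARCB1 Dox libraries below both GFP Dox libraries.

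To show the DNA at the member with the widest fold range of CPM among the 6 that passed the filter, the 250 bases upstream of the MCAM start (RefSeq, GRCh38.p14, chr11:119317131-119317380, minus strand) are given 5′ to 3′. This RefSeq start lies inside the gene span given above, which is that of GENCODE and reaches further upstream. The stretch is shown with the letters of a cAMP response element, TGACGTCA, in capitals.
MCAM: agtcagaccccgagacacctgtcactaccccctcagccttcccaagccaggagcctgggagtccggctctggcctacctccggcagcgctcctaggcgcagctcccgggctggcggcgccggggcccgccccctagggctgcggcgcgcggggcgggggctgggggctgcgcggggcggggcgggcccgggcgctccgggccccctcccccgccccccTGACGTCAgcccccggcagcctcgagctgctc
The stretch is 79.6% G or C, compared with a median of 58.0% over all promoters of that table, and overlaps no annotated exon. TGACGTCA starts 32 bases upstream of the start and occurs in 578 of 35116 promoter stretches of equal length (1.65%). TATAAA, which occurs in 10.7% of the stretches, the hypoxia response element core ACGTG (18.5%) and the AP-1 site TGANTCA (6.57%), each searched on both strands, were not in the MCAM stretch. Of the 10 members 7 matched the table, and among these ANGPTL4 held TATAAA and ACGTG. A match describes letters and does not show that a factor binds.

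The genes most like ANGPT2 over the 8 libraries, by the root mean square difference of centred log2 CPM, were IRF9 (0.163), C17orf58 (0.184), BMP6 (0.213), GLI4 (0.223) and FRRS1 (0.238). IRF9, an interferon response factor, stood at 3.57 ± 0.855 CPM in SMARCB1 DMSO, 1.51 ± 0.115 in SMARCB1 Dox, 1.93 ± 0.177 in GFP DMSO and 1.85 ± 0.516 in GFP Dox (SD, n = 2). BMP6, a secreted bone morphogenetic protein, stood at 13.3 ± 1.44, 4.98 ± 1.25, 9.45 ± 1.77 and 8.08 ± 0.971 CPM in the same order. Both were highest in SMARCB1 DMSO and lowest in SMARCB1 Dox, which follows from choosing them by likeness to ANGPT2. Those most like MCAM were SLC39A8 (0.270), LAYN (0.377), EBF3 (0.439), NPR1 (0.553) and SEMA3B (0.566). SLC39A8, a zinc and manganese transporter, stood at 0.122 ± 0.0628 CPM in SMARCB1 DMSO, 2.38 ± 0.897 in SMARCB1 Dox, 20.6 ± 4.91 in GFP DMSO and 26.0 ± 11.7 in GFP Dox. LAYN, a hyaluronan receptor, stood at 2.36 ± 0.741, 9.19 ± 3.57, 66.5 ± 9.90 and 67.6 ± 5.68 CPM. Both had the MCAM order of groups, which follows from choosing them by likeness to MCAM.

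The wider vascular signaling genes were taken as 10 lists chosen by function. Leaving out the members and SMARCB1, they hold 172 genes, of which 99 passed the filter. In the SMARCB1 line 0 of these 99 were called with Dox in edgeR, 11 had an unadjusted p below 0.05 and DESeq2 called 2, compared with 552 (4.97%) and 34 (0.306%) of all genes. With edgeR and no filter 3 were called, PDGFA, PDGFRA and VLDLR, and without either GFP Dox library 1, VLDLR. Over all 11097 genes, edgeR called 2 (0.018%), SMARCB1 and ASS1, an arginine synthesis enzyme named after its values were seen. The ASS1 call (log2 fold change 2.16, adjusted p = 0.0185 in edgeR) was lost without any 1 library of the SMARCB1 line (adjusted p from 0.0639 to 0.463). With GFP Dox replicate 1 or replicate 2 left out, the number of genes called in the SMARCB1 line was 22 in each case. In the GFP line edgeR called 0 of the 99 list genes and 0 (0%) of all genes with Dox. An unadjusted p below 0.05 was found for 1 and 240 genes there, and DESeq2 called 0. Without GFP Dox replicate 2, edgeR called 147 genes in the GFP line. For the difference between the Dox effects edgeR called 0 of 99 list genes and 0 (0%) of all genes, with an unadjusted p below 0.05 for 5 and 443, and DESeq2 called 0 and 1. Without GFP Dox replicate 2, edgeR called 105 genes for this difference. Of the 6 members that passed the filter, 0 had both Dox libraries on 1 side of both DMSO libraries in the SMARCB1 line and on the other side in the GFP line, compared with 4.66% of all genes.

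Between the lines under DMSO, 8 of the 99 list genes were called higher in the SMARCB1 line (8.08%) and 8 lower (8.08%), and under Dox 13 were called higher (13.1%) and 8 lower (8.08%). Over all genes the shares called higher and lower were 2.49% and 2.49% under DMSO and 3.1% and 2.98% under Dox. An unadjusted p below 0.05 was found for 34 list genes under DMSO and 39 under Dox, compared with 1546 (13.9%) and 2074 (18.7%) of all genes, and DESeq2 called 16 and 23, compared with 636 (5.73%) and 809 (7.29%). The list genes' median log2 fold change was 0.18 under DMSO and 0.18 under Dox, compared with 0.02 and -0.01 over all genes. With genes at 0 in a group set at the 3-count limit the list median was 0.17 and 0.18. Some called list genes, JAG1, EDN1, NRP2 and PDGFA among them, passed the filter only through the SMARCB1 line, where they were high. The number of genes called over the whole table under DMSO was 552, and it was 324 without GFP DMSO replicate 1 and 299 without replicate 2. Under Dox it was 675, and it was 348 without SMARCB1 Dox replicate 1, 379 without SMARCB1 Dox replicate 2 and 1372 without GFP Dox replicate 2.

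Of 14 further genes of the angiopoietin and TIE axis, 4 passed the filter and 5 were at 0 in all libraries. Under DMSO and under Dox, 1 was called higher and 2 lower in the SMARCB1 line. Among all genes 2.49% were called higher and 2.49% lower under DMSO, and 3.1% and 2.98% under Dox. FOXC2, a forkhead factor of vascular and lymphatic development, was 11.2 and 12.9 CPM in SMARCB1 DMSO and 0.576 and 2.08 CPM in GFP DMSO (log2 fold change 3.14, SE 0.53, adjusted p = 0.00172 in edgeR), and the log2 fold change was 2.52 without GFP DMSO replicate 1 and 4.35 without replicate 2. FOXO1, the forkhead factor that drives ANGPT2 transcription in endothelium, was lower in SMARCB1 DMSO, at 2.34 and 4.67 CPM compared with 16.6 and 17.0 in GFP DMSO (log2 fold change -2.20, SE 0.42, adjusted p = 0.00412 in edgeR). Without SMARCB1 DMSO replicate 1, FOXO1 was not called (-1.84, adjusted p = 0.0505 in edgeR), without replicate 2 it stood at -2.84, and its call under Dox (-1.93, SE 0.42, adjusted p = 0.0109) was lost without either SMARCB1 Dox library (adjusted p = 0.164 and 0.0509). ANGPTL2, a secreted angiopoietin-like protein, was also lower under DMSO (log2 fold change -1.59, SE 0.26, adjusted p = 0.00151 in edgeR). Its difference under Dox, -1.02 (SE 0.26, adjusted p = 0.0301), was lost with library size scaling, without a filter and without any library of the Dox or GFP DMSO groups but GFP Dox replicate 2. Without GFP Dox replicate 1 it was -0.87 (adjusted p = 0.119 in edgeR), and the adjusted p reached 0.277 without SMARCB1 Dox replicate 1. With Dox in either line 0 of the 4 were called in edgeR, 0 had an unadjusted p below 0.05 and DESeq2 called 0.

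Among 15 other VEGF and PDGF ligands, receptors and adaptors, 12 passed the filter. PDGFRA, the PDGF receptor alpha, resembled MCAM in its order of groups, with 1 and 7 counts in SMARCB1 DMSO, 20 and 20 in SMARCB1 Dox, 578 and 661 in GFP DMSO, and 341 and 255 in GFP Dox. It was lower in the SMARCB1 line under DMSO by a log2 fold change of -6.77 (SE 0.49, adjusted p = 5.67e-07 in edgeR) and under Dox by -4.34 (SE 0.40, adjusted p = 6.95e-06). Without SMARCB1 DMSO replicate 2 the log2 fold change under DMSO was -8.02. Its ligand PDGFA was instead highest in SMARCB1 Dox and lowest in the GFP line, with 8 and 11 counts in SMARCB1 DMSO, 126 and 33 in SMARCB1 Dox, 1 and 3 in GFP DMSO, and 1 and 2 in GFP Dox. PDGFA passed the expression filter only through the SMARCB1 line, where it was high. SMARCB1 Dox exceeded GFP Dox in PDGFA by a pooled ratio of 40.7 (exact 95% Clopper-Pearson interval 13.7 to 199, adjusted p = 0.00197 in edgeR). The interval covers counting error only. The fitted log2 fold change of PDGFA was 5.02 with all libraries and 4.41 without SMARCB1 Dox replicate 1, where PDGFA was not called.

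NRP2, a co-receptor of VEGF and semaphorins, was 5.84 and 5.84 CPM in SMARCB1 DMSO, 17.9 and 17.3 in SMARCB1 Dox, 0.576 and 0.764 in GFP DMSO, and 0.165 and 0.740 in GFP Dox. NRP2 too passed the expression filter only through the SMARCB1 line, where it was high. It was called higher in the SMARCB1 line under DMSO (log2 fold change 3.09, SE 0.52, adjusted p = 0.00177 in edgeR) and under Dox (5.20, SE 0.60, adjusted p = 5.76e-05), the latter 4.55 without GFP Dox replicate 1 and 6.63 without replicate 2. With Dox in the SMARCB1 line edgeR called 0 of the 12, although 4 had an unadjusted p below 0.05 (4.97% of all genes) and DESeq2 called 1, PDGFA (0.306% of all genes). The edgeR values for PDGFA were a log2 fold change of 2.90 (SE 0.69) and an adjusted p of 0.323, while DESeq2 gave an adjusted p of 0.0488. This fold change of PDGFA lay between 2.28 and 3.3 when any library was left out. Over the alternative settings that kept all libraries the adjusted p of PDGFA ranged from 0.0345 to 0.324 and that of PDGFRA from 0.00802 to 0.314. For PDGFRA the log2 fold change was 2.44 (SE 0.57), with an adjusted p of 0.317 in edgeR and 0.0525 in DESeq2. This fold change of PDGFRA lay between 1.98 and 3.68 when any library was left out.

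**Figure D4:**
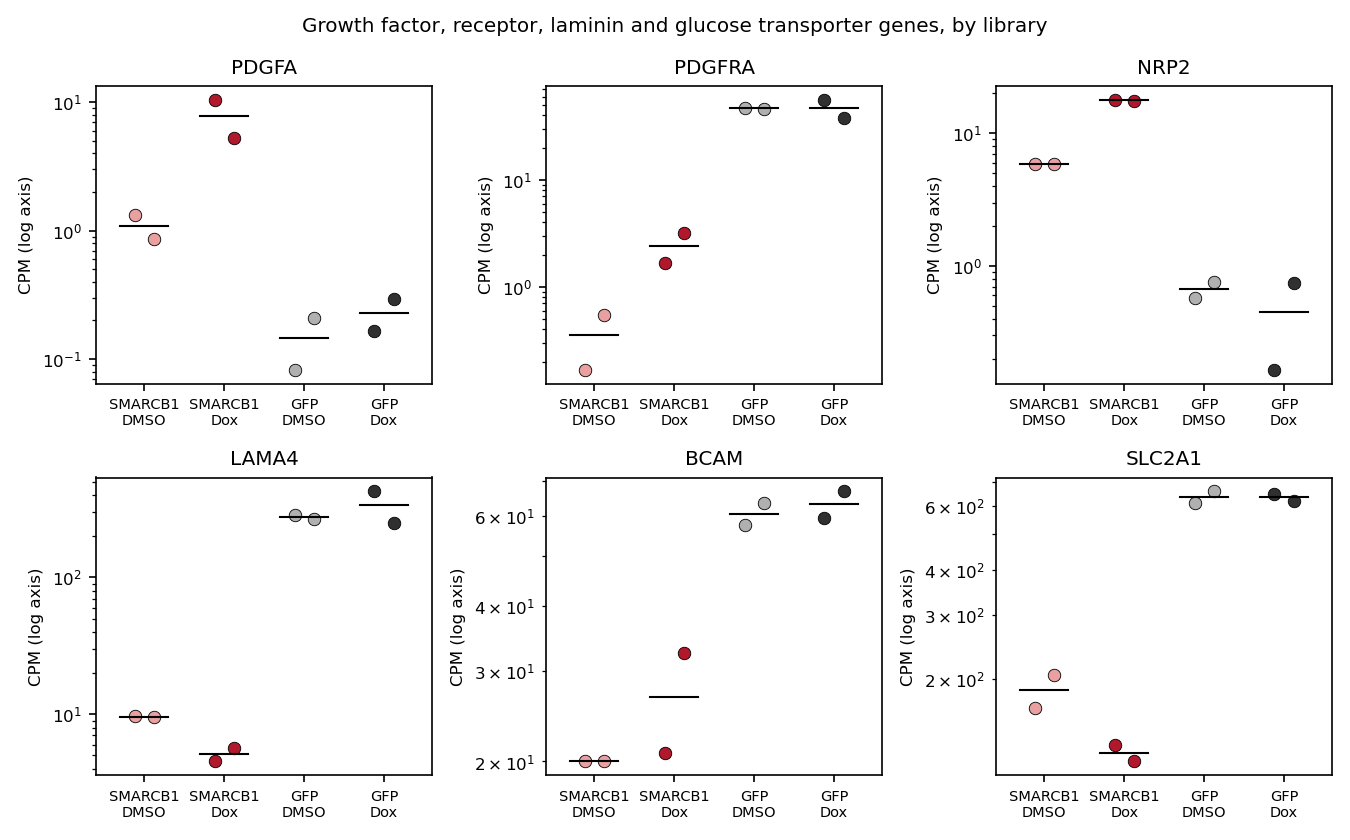
CPM of 6 genes from the vascular signaling lists in each library (points) with group means (bars), on log axes. PDGFRA, LAMA4, BCAM and SLC2A1 are higher in the GFP line, PDGFA and NRP2 in the SMARCB1 line, and LAMA4 spans from 4.52 CPM in SMARCB1 Dox to 428 CPM in GFP Dox.

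Of 34 other angiogenic ligands and receptors 15 passed, with 2 called higher in the SMARCB1 line under DMSO and 3 under Dox, and 0 lower in either in edgeR (7 and 6 with an unadjusted p below 0.05 in either direction, as for 13.9% and 18.7% of all genes, and DESeq2 called 2 and 3). Among all genes edgeR called 2.49% higher and 2.49% lower under DMSO, and 3.1% and 2.98% under Dox. JAG1, a NOTCH ligand, had 53 counts in the pooled SMARCB1 DMSO libraries and 0 in the GFP libraries, at least 23.4-fold higher than the 3-count limit (adjusted p = 0.00597 in edgeR). Its SMARCB1 DMSO counts were 9 in replicate 1 and 44 in replicate 2, so this limit rests mostly on replicate 2. EDN1, the precursor of the vasoconstrictor endothelin, had 33 counts compared with 0, at least 14.6-fold higher (adjusted p = 0.00811 in edgeR). JAG1 and EDN1 passed the expression filter only through the SMARCB1 line, where they were high, so their calls are not independent of the filter. Both calls were lost without either GFP DMSO library (adjusted p up to 0.0816 for JAG1 and 0.12 for EDN1 in edgeR). They were also lost without a SMARCB1 DMSO library, replicate 2 for JAG1 (adjusted p = 0.0951) and replicate 1 for EDN1 (adjusted p = 0.0563). CCN1, a matricellular integrin ligand, was called under Dox (log2 fold change 1.29, SE 0.26, adjusted p = 0.00683 in edgeR) but not without SMARCB1 Dox replicate 2 (1.05, adjusted p = 0.118). The calls of JAG1 and EDN1 under Dox were lost without either SMARCB1 Dox library (adjusted p = 0.0519 and 0.0565 for JAG1, 0.107 and 0.114 for EDN1 in edgeR). That of EDN1 was also lost without GFP Dox replicate 1 (adjusted p = 0.108 in edgeR).

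Of 16 angiogenesis inhibitors 9 passed, and 2 were called higher in the SMARCB1 line under DMSO and 3 under Dox. Among all genes 2.49% were called higher under DMSO and 3.1% under Dox. SPARC, a collagen-binding matricellular protein, was 2158.2 and 3178.5 CPM in SMARCB1 DMSO compared with 258 and 194 CPM in GFP DMSO (log2 fold change 3.56, SE 0.36, adjusted p = 1.35e-05 in edgeR). Thrombospondin THBS1 was 525 and 580 CPM compared with 110 and 117 CPM (2.28, SE 0.27, adjusted p = 6.76e-05 in edgeR). Its call under Dox (1.17, SE 0.26, adjusted p = 0.0127 in edgeR) was lost without GFP Dox replicate 2 (0.89, adjusted p = 0.0317) and without SMARCB1 Dox replicate 2 (1.01, adjusted p = 0.16). TIMP2, a metalloproteinase inhibitor, was called under Dox alone (1.06, SE 0.29, adjusted p = 0.0424 in edgeR), and not without GFP Dox replicate 1 (0.87, adjusted p = 0.189), SMARCB1 Dox replicate 2 (0.68, adjusted p = 0.442) or either GFP DMSO library (adjusted p = 0.0739 and 0.0675), nor with a minimum of 10 counts in every library (adjusted p = 0.0573). With Dox in the SMARCB1 line the smallest p was that of SEMA3F, a semaphorin that binds NRP2, at 9.34 and 8.02 CPM in SMARCB1 DMSO and 17.9 and 23.3 in SMARCB1 Dox (log2 fold change 1.25, SE 0.32, adjusted p = 0.354 in edgeR), which did not pass the test.

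Of 26 HIF pathway genes and hypoxia targets 22 passed, with 1 called higher and 1 lower in the SMARCB1 line under DMSO, and 2 higher and 1 lower under Dox. Among all genes 2.49% were called higher and 2.49% lower under DMSO, and 3.1% and 2.98% under Dox. The glucose transporter SLC2A1 was lower in the SMARCB1 line, at 166 and 205 CPM in SMARCB1 DMSO compared with 612 and 659 in GFP DMSO (log2 fold change -1.77, SE 0.24, adjusted p = 0.000209 in edgeR). The lipoprotein receptor VLDLR was higher, at 8.34 and 4.36 CPM compared with 0.987 and 0.625 (2.94, SE 0.57, adjusted p = 0.00535 in edgeR), but was not called without GFP DMSO replicate 2 (adjusted p = 0.0884) or SMARCB1 DMSO replicate 1 (adjusted p = 0.0574). With Dox in the SMARCB1 line VLDLR stood at 21.5 and 28.9 CPM (log2 fold change 2.01, SE 0.49), with an adjusted p of 0.336 in edgeR, 0.0277 in DESeq2 and between 0.00254 and 0.324 over the alternative settings that kept all libraries. Without GFP Dox replicate 1 its adjusted p was 0.0463 in edgeR. The pyruvate dehydrogenase kinase PDK1 was called under Dox between the lines (2.0, SE 0.43, adjusted p = 0.0102 in edgeR), and not without either SMARCB1 Dox library (adjusted p = 0.0613 and 0.0664). With Dox the 22 genes had a median log2 fold change of 0.10 in SMARCB1 cells and 0.06 in GFP cells, compared with -0.02 and 0.02 over all genes.

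Of 13 PPAR targets, which like ANGPTL4 respond to fatty acids, 8 passed and edgeR called 0 in each of the 5 comparisons. An unadjusted p below 0.05 was found for 1 under DMSO and 3 under Dox between the lines (13.9% and 18.7% of all genes) and for 0 in the other comparisons, and DESeq2 called 0. PLIN2, a lipid droplet protein, was 47.4 and 55.2 CPM in SMARCB1 Dox compared with 20.3 and 31.7 in GFP Dox (log2 fold change 0.98, SE 0.31, adjusted p = 0.0802 in edgeR).

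Of 17 relatives and binding partners of MCAM 12 passed, and 3 were called lower in the SMARCB1 line under DMSO and 2 under Dox. Among all genes 2.49% were called lower under DMSO and 2.98% under Dox. LAMA4, the laminin chain that MCAM binds, had 58 and 122 counts in SMARCB1 DMSO, 54 and 36 in SMARCB1 Dox, 3486 and 3846 in GFP DMSO, and 2590 and 1679 in GFP Dox. Like MCAM it was far lower in the SMARCB1 line, by a log2 fold change of -4.85 under DMSO (SE 0.32, adjusted p = 3.08e-07 in edgeR) and -6.06 under Dox (SE 0.34, adjusted p = 7.89e-08). Unlike MCAM, its libraries with Dox in the SMARCB1 line lay below those with DMSO, at 4.52 and 5.71 CPM compared with 9.67 and 9.51 (log2 fold change -0.92, SE 0.32), which did not pass the test (adjusted p = 0.716 in edgeR). BCAM, a laminin receptor of the same superfamily as MCAM, was lower under DMSO (-1.60, SE 0.27, adjusted p = 0.00177 in edgeR) and under Dox (-1.25, SE 0.27, adjusted p = 0.0101), the latter not called without SMARCB1 Dox replicate 1 (-0.96, adjusted p = 0.212). FYN, a kinase that binds the MCAM tail, was called lower under DMSO (-3.47, SE 0.91, adjusted p = 0.0377 in edgeR), on 5 and 1 counts in SMARCB1 DMSO compared with 41 and 71 in GFP DMSO. Its log2 fold change was -5.53 without SMARCB1 DMSO replicate 1 and -2.30 without replicate 2. That call was lost with library size scaling (adjusted p = 0.0504 in edgeR) and without either GFP DMSO library (0.125 and 0.314), SMARCB1 DMSO replicate 2 (0.32) or either SMARCB1 Dox library (0.0579 and 0.0563). With Dox in the SMARCB1 line 0 of the 12 were called in edgeR, 2 had an unadjusted p below 0.05 (4.97% of all genes) and DESeq2 called 0.

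The endothelial marker list shows what the receptor counts sit beside. Of its 19 genes 4 passed the filter and 7 had 0 counts in every library, ERG, EMCN, ROBO4, CD34, KDR, SOX17 and ECSCR. PECAM1 had at most 3 counts in a library, CDH5 at most 2, CLDN5 at most 5 and ESAM at most 6. VWF had 4 to 10 counts and SOX18 5 to 28, each in every library. Summed over the list, the libraries held 35.9 and 48.1 CPM in SMARCB1 DMSO, 37.5 and 56.1 in SMARCB1 Dox, 42.1 and 54.1 in GFP DMSO, and 38.1 and 55.3 in GFP Dox. EGFL7, a secreted protein also made outside endothelium, was its most abundant gene, at 24.0 to 47.6 CPM. Without it the sums were 4.17 to 8.56 CPM in the SMARCB1 line and 12.8 to 18.3 CPM in the GFP line. MMRN2, an extracellular matrix protein, was called lower in the SMARCB1 line under DMSO (log2 fold change -2.26, SE 0.44, adjusted p = 0.00498 in edgeR) and under Dox (-2.73, SE 0.45, adjusted p = 0.00147). The call under DMSO was lost without GFP DMSO replicate 2 (adjusted p = 0.113 in edgeR) and without SMARCB1 DMSO replicate 2 (adjusted p = 0.0705).

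Of 13 pericyte and smooth muscle markers 8 passed. TAGLN, an actin-binding protein, was the most abundant at 233 to 508 CPM, and the list summed to 507 to 764 CPM per library. Without TAGLN the sums were 243 to 353 CPM, and PDGFRB had a mean of 198 CPM over all libraries. KCNJ8 and HIGD1B had 0 counts in every library. ACTA2 had 1 to 13 counts per library, MYH11 at most 3, DES at most 4 and ABCC9 at most 1. RGS5, a regulator of G protein signaling, was called higher in the SMARCB1 line under DMSO (log2 fold change 1.65, SE 0.41, adjusted p = 0.0262 in edgeR) and under Dox (1.89, SE 0.43, adjusted p = 0.0151). The call under DMSO was lost without either GFP DMSO library (adjusted p = 0.205 and 0.242 in edgeR) or SMARCB1 DMSO replicate 2 (0.258), and that under Dox without SMARCB1 Dox replicate 1 (0.272). Under Dox CSPG4, the NG2 proteoglycan, was called higher (1.06, SE 0.30, adjusted p = 0.0469 in edgeR), but not without GFP Dox replicate 1 (0.88, adjusted p = 0.201) and not without any library of the SMARCB1 line (adjusted p from 0.0594 to 0.413), nor with a minimum of 10 counts in every library (adjusted p = 0.0645). NOTCH3 was called lower (-1.37, SE 0.32, adjusted p = 0.016 in edgeR), but not without SMARCB1 Dox replicate 1 (-1.05, adjusted p = 0.267) or with library size scaling (adjusted p = 0.0517).

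Of 12 rhabdoid tumor line markers 9 passed, and SMARCB1 was the only gene of the list called in edgeR, with Dox in the SMARCB1 line and under Dox between the lines. Under DMSO between the lines edgeR called 0, with an unadjusted p below 0.05 for 2 (13.9% of all genes), and DESeq2 called 0. Vimentin, VIM, had the highest mean CPM over the 8 libraries, at 1211.9 to 3383.9 CPM, although KRT8 had more in each GFP library, and the list summed to 5407.8 to 7862.4 CPM per library. The leukocyte marker PTPRC had 0 counts in every library. So did CD99, a widely expressed gene of the same list, so a count of 0 here does not by itself show that a gene is silent. For VIM under DMSO between the lines the log2 fold change was 0.91 (SE 0.27), with an adjusted p of 0.0715 in edgeR. The keratin KRT8, also typical of rhabdoid cells, had 7503 or more counts in every library.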

How the data were processed

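Ribosome footprints of 8 libraries were analysed. The authors used the RiboLace kit to capture translating ribosomes, aligned reads with STAR to hg38 and counted them with HTSeq (intersection-strict, coding sequences, GENCODE 42), and deposited these raw counts per gene without normalization. The strand option and duplicate handling are not given in the sources used here. Without RNA-seq, which is not used here, translation efficiency was not estimated. The 5 HTSeq summary entries entered neither library sizes nor tests. Of uniquely aligned reads, 36.6% to 45.9% were assigned to no coding sequence, which in this mode includes reads that overlap one only in part. IDs were matched without version to GENCODE 44 (293 of 20719 unmatched).

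Counts per library ranged from 5924443 to 14000039. In R 4.3.3, edgeR 4.0.16 (filterByExpr by group, TMM, glmQLFit, 1 term per group, all 8 libraries) tested 11097 genes with Benjamini-Hochberg adjustment, and genes were called at an adjusted p below 0.05 and a fold change above 2. SE came from the F statistic. CPM used TMM-scaled totals. Alternatives were RLE factors, library size alone, DESeq2 1.42.0, other filters, a replicate block and leaving out each library. A pseudocount of 0.5 CPM was used for likeness of profile. Members below the filter got pooled count ratios scaled by totals, with exact 95% intervals.

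The members and gene lists were chosen with earlier results of these data known. Genes were selected for naming as the members, SMARCB1, up to 3 called genes of each list in each direction and comparison (otherwise the 2 with the smallest p), the most abundant marker of a list, and the 5 nearest profiles of ANGPT2 and MCAM. Where a list had no call in a comparison, not all genes selected by p are named here. Exceptions were named after their values were seen: ASS1, the marker genes given by their counts alone, and FLT4 and KRT8 where cited outside their comparison. Replicate libraries differed by more than sampling noise (chi-square per degree of freedom 14.8 to 46). The study describes duplicate experiments, each on pooled plates, and not whether the duplicates were separate cultures, so p-values measure the spread between these libraries, which may be technical. Sequences came from RefSeq.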

Additional observations from a re-analysis of the deposited data

Results flagged for a closer look

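The calls and smallest p-values selected 49 genes from the vascular signaling lists, and not all of them are named here. In 5 of these 49 (10.2%), both Dox libraries lay on 1 side of both DMSO libraries in the SMARCB1 line. In the GFP line they lay on the other side. The same held for 7 of all 99 list genes that passed the filter (7.07%) and for 4.66% of all genes. The 49 were selected partly by p in these same Dox comparisons, so their share cannot be set against the other shares. None of the 5 passed edgeR's test of the difference between the Dox effects (adjusted p = 0.981 for each). Nor did any of the 5 pass edgeR's test of Dox in either line after adjustment. That both directions hold together beyond these libraries was not tested. THBS1, an angiogenesis inhibitor, was lower with Dox in the SMARCB1 line (525 and 580 CPM with DMSO, 347 and 431 with Dox) and higher in the GFP line (110 and 117, then 210 and 135), a difference between the log2 effects of -1.11, or -0.76 without GFP Dox replicate 1. The lymphatic VEGF receptor FLT4 had the same directions, with a difference of -0.88 (-0.64 without that library), and the PDGF receptor PDGFRB had a difference of -0.41 (-0.33). The matricellular ligand CCN1 was higher with Dox in the SMARCB1 line and lower in the GFP line, with a difference of 0.67 (0.50), and its effect in the GFP line fell from -0.18 to -0.01 without that library. The kinase PDK1 did likewise, with a difference of 1.06 (1.18). None of the 10 members crossed over in this way.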

How the results depend on the processing

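Of 415 alternative values of the members' log2 fold changes, 391 kept their sign and moved by at most 1 SE, 11 moved by more and 15 changed sign, with 2 doing both. The moves were 5 of MCAM without a SMARCB1 DMSO library and 6 of ANGPT1, VEGFA and VEGFB without a GFP Dox library. The only call lost was that of ANGPT1 between the lines under DMSO, without GFP DMSO replicate 2. No value that changed sign was called, and 7 of the 15 were not tested (ANGPTL4 and VEGFA with Dox in the SMARCB1 line, and VEGFA for the difference). Of the tested ones, the sign changes of Dox in the GFP line were ANGPT1 at 0.06 without GFP DMSO replicate 1 and 0.10 without GFP Dox replicate 2 (range over left-out libraries -0.38 to 0.10), and VEGFA at 0.15 (-0.66 to 0.15) and VEGFB at -0.36 (-0.36 to 0.59) without GFP Dox replicate 1. Those under Dox between the lines were VEGFB at 0.00 (-0.96 to 0.00) and ANGPTL4 at 0.02 (-0.70 to 0.33) without GFP Dox replicate 1, and ANGPTL4 at 0.33 without SMARCB1 Dox replicate 1 and 0.01 with library size alone. The cause was not tested.

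Genes called with Dox in the SMARCB1 line numbered 2, and 34 with DESeq2, 46 without a filter, 1 with a minimum of 10 counts per library (fewer genes tested) and 1 to 22 leaving out a library. In the GFP line the number was 0, and 14 without a filter and 0 to 147 leaving out a library. For the difference between the Dox effects it was 0, and 1 with DESeq2, 15 without a filter and 0 to 105 leaving out a library. Between the lines under DMSO it was 552, and 288 with a minimum of 10 counts per library and 299 to 668 leaving out a library. Under Dox it was 675, and 377 with a minimum of 10 counts per library and 348 to 1372 leaving out a library. A group left with 1 library is assumed to vary like the others. Causes other than fewer genes or libraries were not tested. Scaling by library size alone shifted the median over genes (log2) with Dox in the SMARCB1 line from -0.02 to 0.09, under Dox between the lines from -0.01 to 0.11, and that of the difference of Dox effects from -0.03 to 0.16.

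Same-numbered libraries had correlations of their deviations from 0.0454 to 0.28, above 0 in each of the 6 pairs and over 0.1 in 5, a hint of shared sets from the data alone. All 6 over 0.1 would have been needed to take the numbers as pairing libraries. With a replicate block 13 genes were called with Dox in the SMARCB1 line, 0 in the GFP line, 603 under DMSO and 734 under Dox between the lines, and 0 for the difference. The VEGFC ratio ranged from 0.292 to 1.47 leaving out a library for Dox in the SMARCB1 line, from 2.50 to 15.4 under DMSO and from 2.22 to 7.03 under Dox between the lines, and the other omissions left a group at 0 and gave no ratio. For the members below the filter, depth sets the upper limit that a count of 0 allows and the width of the count intervals. Its part in the low counts, and in the SEs of ANGPTL4, VEGFA and VEGFB, was not tested.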
